A study of Mus musculus with 2 samples.

Results

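Hes5-high lens epithelial cells (LECs) were 1020 cells of the postnatal mouse lens epithelium, of 21739 cell barcodes deposited in all and of 19051 barcodes of LECs. They were selected on their own transcript counts: each held at least 5 unique molecular identifiers (UMIs, each tagging 1 captured transcript molecule) of Hes5. The same rule set limits on quality and class. It kept cells of 949 to 20198 UMIs and 446 to 4261 detected genes, with at most 15% mitochondrial UMIs and at least 2% of UMIs from the alpha crystallins Cryaa and Cryab. It left out cells rich in Igfbp5, Podn and Ptgds, in the beta crystallins Cryba2, Cryba4 and Crybb1, in mitotic transcripts or in S-phase histone transcripts, and the cells it kept are called resting LECs. The name is only a label. These limits removed cells in mitosis or rich in S-phase histone transcripts, but not cells that were entering S phase. They also kept cells rich in Cdkn1c, a gene of early fiber differentiation, and such cells were also in the comparison group described next. In total 9854 cells met every limit other than that on Hes5, and 6498 of them held no Hes5 UMI and served as the Hes5-zero cells that the members were compared with.

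The study profiled LECs by droplet single-cell RNA sequencing of the peeled lens capsule with its adhering epithelium, dissociated with enzymes. There were 2 samples of 1 condition, wild-type C57BL/6N mice at postnatal day 2 with no treatment named, and each sample pooled the epithelia of 4 to 8 pups. Replicate 1 gave 435 of the members and replicate 2 gave 585. No comparison of mice was possible with 1 condition, so the comparisons here were between cells of the same pools, over sums of UMIs per pool. The difference between the pools themselves was removed by a block. The p-values thus measure only how far differences between groups of cells varied between 2 pools, and not the spread between mice.

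Notch signaling passes between touching cells. A ligand of the Jagged or Delta family on one cell releases the intracellular domain of a Notch receptor on its neighbor, which joins the DNA-binding protein RBPJ in the nucleus and switches on genes that encode Hes and Hey repressors. Hes5 is one of the classic targets of this route, best known for holding neural progenitors back from differentiation. In the lens, Jag1 and Notch2 are known to keep a proliferating epithelial pool and to time its differentiation into fiber cells.

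Hes5 lies on the plus strand of chromosome 4 of the mm10 build, from 154960923 to 154962371. The sequences before the starts of 3 pathway genes are shown because these genes stood at different ends of the comparison described below: the gene the cells were selected on (Hes5), a Notch target that was higher in the same cells (Nrarp) and the ligand that was lower in them (Jag1). Each is the 250 bases before the RefSeq start on the gene's own strand, from RefSeq on GRCm38.p6, at chr4:154960673-154960922 (plus strand) for Hes5, chr2:25180508-25180757 (plus strand) for Nrarp and chr2:137116521-137116770 (minus strand) for Jag1. Capitals in the Hes5 sequence mark the RBPJ core motif TGGGAA on either strand. Capitals in the Nrarp sequence mark the N-box CACNAG, a motif that Hes repressors bind, on either strand.
Hes5 promoter: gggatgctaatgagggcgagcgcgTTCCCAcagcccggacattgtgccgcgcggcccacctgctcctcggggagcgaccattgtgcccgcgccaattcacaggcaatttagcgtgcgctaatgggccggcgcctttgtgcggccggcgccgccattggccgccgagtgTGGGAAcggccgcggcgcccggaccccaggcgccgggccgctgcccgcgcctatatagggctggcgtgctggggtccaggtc
Nrarp promoter: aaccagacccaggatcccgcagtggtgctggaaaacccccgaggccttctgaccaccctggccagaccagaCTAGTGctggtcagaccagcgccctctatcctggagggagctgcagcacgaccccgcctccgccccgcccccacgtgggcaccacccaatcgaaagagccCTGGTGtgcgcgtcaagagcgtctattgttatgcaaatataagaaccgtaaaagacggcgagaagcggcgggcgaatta
Jag1 promoter: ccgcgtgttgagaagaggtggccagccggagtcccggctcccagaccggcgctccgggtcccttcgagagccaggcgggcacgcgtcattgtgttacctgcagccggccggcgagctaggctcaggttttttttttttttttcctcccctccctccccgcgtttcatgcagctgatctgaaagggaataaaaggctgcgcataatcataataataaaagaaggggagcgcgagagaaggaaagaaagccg
The Hes5 window held 2 RBPJ core matches, 1 on the plus strand at 82 to 77 bases before the start and 1 on the minus strand at 226 to 221 bases before it, and no N-box. The Nrarp window held 2 N-box matches, both on the minus strand, at 79 to 74 and 179 to 174 bases before the start, and no RBPJ core. The Jag1 window held neither motif. No matches overlapped. Over 32851 windows of the same length, 21.6% held at least 1 RBPJ core and 2.77% held 2 or more, while 36.7% held at least 1 N-box and 8.18% held 2 or more. A match of 6 letters is a description of the sequence and not a binding site.

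Hes5 was spread unevenly over resting LECs. Of the cells that met the other limits, 71.0% of replicate 1 and 58.6% of replicate 2 held no Hes5 UMI, yet the mean over all of them was 1.25 and 2.63 UMIs per cell. The members were 7.43% of these cells in replicate 1 and 14.6% in replicate 2, and they held 70.9% and 82.1% of the Hes5 UMIs. The variance of Hes5 per cell was 11.4 and 16.5 times its mean, against 5.71 and 7.32 times for Hes1, a Notch target that is also induced by other signals. Because these values chose the members, they are given with no test.

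The members themselves ranged widely. Replicate 1 held 5 to 46 Hes5 UMIs per member with a median of 9 and quartiles of 6 and 15. Replicate 2 held 5 to 68 with a median of 11 and quartiles of 7 and 19. In replicate 1, 209 members had 10 or more UMIs and 68 had 20 or more, and in replicate 2 there were 333 and 144. The limit of 5 did not fall in a gap: 90 and 92 cells had 4 UMIs and lay just outside it, and 66 and 80 cells had 5 and lay just inside. The histogram of Hes5 UMIs per cell showed one long tail in each pool.

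**Figure D1:**
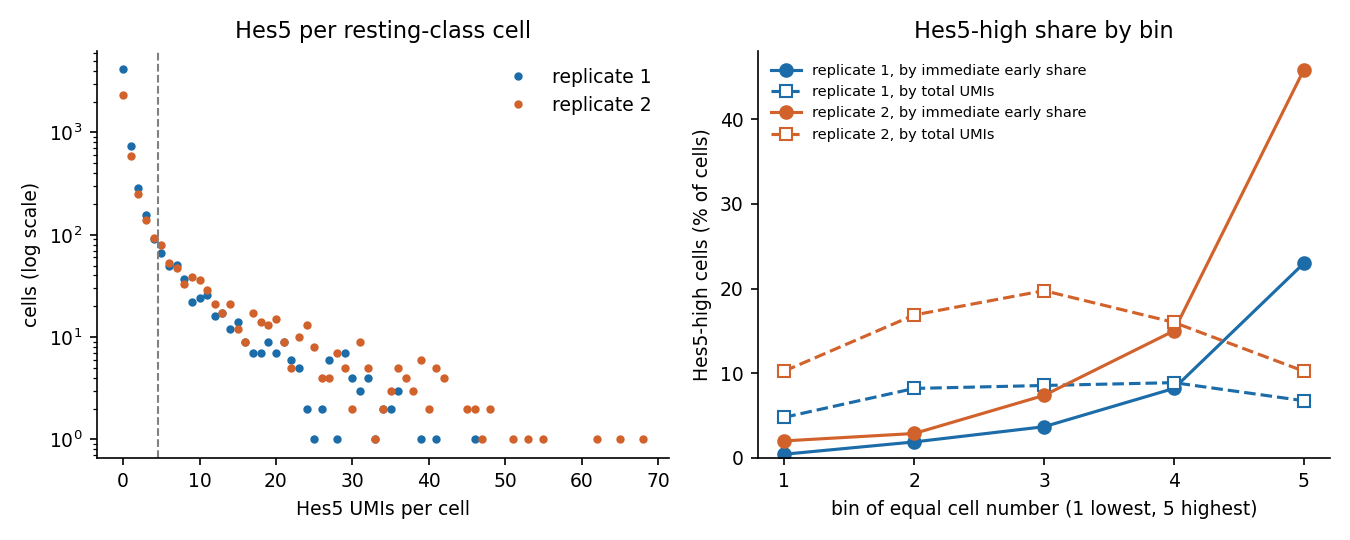
Hes5 in resting lens epithelial cells of both pools. Left, number of cells (log axis) by Hes5 UMIs in the cell, with the limit of 5 UMIs dashed; right, percent of cells that were Hes5-high in 5 bins of equal cell number, ranked by immediate early share or by total UMIs: the share climbed from 0.427% to 23.0% in replicate 1 and from 2.00% to 45.8% in replicate 2 over the bins of immediate early share, while over total UMIs it stayed between 4.79% and 8.88% and between 10.2% and 19.8%.

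Members and Hes5-zero cells were of similar depth. The members' median was 5863 UMIs in replicate 1 and 7324 in replicate 2, against 5688 and 7358 in the Hes5-zero cells, and they had a median of 2144 and 2453 detected genes against 2126 and 2452. Mitochondrial transcripts took a median of 5.33% and 4.98% of UMIs in members and 5.52% and 5.38% in Hes5-zero cells. A doublet caller was run in each pool on the barcodes within the limits on UMIs, genes and mitochondrial share. Its top 8% of scores took in 8.28% and 8.21% of members and 6.14% and 6.65% of Hes5-zero cells. No cell was removed for its score in the main comparison. One measure did set the groups apart. Immediate early genes, which switch on within minutes of a stimulus and also during tissue dissociation, took a median of 2.38% and 2.29% of UMIs in members but 1.17% and 0.794% in Hes5-zero cells. With resting LECs of each pool put into 5 bins of equal cell number by this share, the top bin held 269 of the 435 members of replicate 1 and 367 of the 585 of replicate 2. The tests between members and Hes5-zero cells were therefore made a second time against Hes5-zero cells drawn to match the members in total UMIs and immediate early share, called the matched comparison. Those draws found 432 cells for the 435 members of replicate 1 (median share 2.35%) and only 437 for the 585 of replicate 2 (median share 1.86%), so replicate 2 was matched in part.

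Over the whole series the 2 libraries held 93839132 and 86033032 UMIs, with medians of 6307 and 8050 UMIs per barcode. Only 27 of the 21739 barcodes occurred in both libraries, 3 of them among members. Of the 1831 barcodes with 5 or more Hes5 UMIs, 124 lay outside the limits on UMIs, genes or mitochondrial share, 44 were rich in beta crystallin, 344 were mitotic, 116 were S-phase cells, 183 were Igfbp5-rich, and the other 1020 were the members. None failed the alpha crystallin limit.

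The members carried lens markers. Pax6, the master regulator of eye development, stood at 323 and 298 CPM (UMIs of the gene per 1000000 UMIs) in the members of replicates 1 and 2 and at 336 and 303 CPM in the Hes5-zero cells, so its level was similar in both. Foxe3, an epithelial lens factor, was low throughout, at 6.11 and 8.10 CPM in members and 3.88 and 5.64 CPM in Hes5-zero cells. Marker sums of other cell types differed in how far they set the groups apart. Summed endothelial markers stood at 97.7 and 99.7 CPM in members against 97.6 and 84.3 CPM, and mural markers at 56.1 and 52.2 CPM against 90.0 and 75.6 CPM. Single genes made up most of both sums in members: Egfl7 held 75.1 and 79.2 CPM and Notch3 43.5 and 42.1 CPM. These sums are therefore no measure of stray transcripts alone. The mural markers Kcnj8 and Cspg4 were at 0 in members, as were Crx, Nrl and Otx1, which mark retina or ciliary margin. Crx and Nrl were at 0 in Hes5-zero cells too. Members held 2762806 and 4522410 UMIs in all against 24907974 and 17561761, so a rare gene at 0 in members alone says little. The erythroid marker Alas2 was at 0 in members as well, and the summed erythroid markers stood at 12.7 and 119 CPM in members against 142 and 56.8 CPM. The markers of retina and ciliary margin summed to 140 and 124 CPM in members and 153 and 120 CPM in Hes5-zero cells, so that the pools overlapped. Most of this sum in members was Sox2, at 124 and 108 CPM. Melanocyte and pigment epithelium markers summed to 3.62 and 1.33 CPM against 2.61 and 2.22 CPM. Macrophage markers were uneven, at 2.17 and 41.1 CPM in members and 8.59 and 7.40 CPM in Hes5-zero cells, so that replicate 2 alone was high. Their part in the results below was not tested.

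Hes5 was rare in the other cell types of the preparation, where free RNA in droplets also gives stray UMIs. At least 1 Hes5 UMI was found in 3.15% of 572 endothelial barcodes (95% exact binomial interval 1.88 to 4.93), at a median of 3246 UMIs, and in 2.30% of 392 mural barcodes (1.06 to 4.31), at a median of 3438.5 UMIs. None of these barcodes held 5. Among resting LECs 29.0% and 41.4% held at least 1. Hes1, by contrast, was found in 76.2% of endothelial barcodes at 652 CPM. The intervals cover counting error only.

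Between Hes5-high and Hes5-zero cells, the Notch targets Hes1, Hey1, Heyl and Nrarp stood higher in members and the ligand Jag1 lower, while receptors and the RBPJ complex showed no call. Immediate early genes and DNA replication genes were higher, and genes of early fiber differentiation, with Cdkn1c, were lower. edgeR's quasi-likelihood test on summed UMIs, blocked on pool and with Benjamini-Hochberg adjustment at 0.05, tested 11697 genes. It placed 545 higher in members, which was 4.66% of the genes tested, and 302 lower, which was 2.58%. Against the matched Hes5-zero cells it placed 88 of 10653 genes higher (0.826%) and 51 lower (0.479%), and 124 genes were called in both comparisons. With depth alone matched the figures were 333 of 10996 (3.03%) and 178 (1.62%). The median log2 fold change over all genes was -0.002. Counts of calls in gene lists of the members, given below, have as background 4.66% higher and 2.58% lower. In the matched comparison the background is 0.826% and 0.479%.

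Among the bHLH repressors that Notch switches on and their Tle cofactors, 4 of the 8 tested genes were higher in members, against the 4.66% of all genes. Hes1 held 1589 and 1824 CPM in the members of replicates 1 and 2 and 465 and 522 CPM in the Hes5-zero cells. Hes1 rose in steps with Hes5, to 647 and 716 CPM in cells with 1 to 2 Hes5 UMIs and 1056 and 993 CPM in cells with 3 to 4. The pools did not overlap between any of the 4 Hes5 classes. Its log2 fold change was 1.79 ± 0.038 (SE), and 0.77 in the matched comparison. Hes1, Gm17056, Nr4a1, Egr2 and Ier2 were already known as markers of these cells from earlier results, so their values are a description and their calls are no independent evidence.

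Hey1, a related repressor, held 116 and 117 CPM in members and 57.9 and 62.5 CPM in Hes5-zero cells. Its log2 fold change of 0.96 ± 0.068 (edgeR adjusted p = 8.14e-14) was the same size in the matched comparison, at 0.99 (adjusted p = 5.35e-07). Heyl, the third Hey repressor, was a rare transcript, at 15.1 and 14.4 CPM in members and 7.13 and 5.06 CPM in Hes5-zero cells. It too was as far apart in both comparisons, with log2 fold changes of 1.27 ± 0.19 (adjusted p = 4.39e-06) and 1.25 (adjusted p = 0.00675). Hey2 held 8.26 and 5.18 CPM in members and 2.98 and 3.43 CPM in Hes5-zero cells, and its call (log2 fold change 1.02 ± 0.31, adjusted p = 0.0313) was lost in the matched comparison (0.78, adjusted p = 0.567). Hes6, a relative that counteracts Hes1 in neurons, stood at 35.6 and 36.0 CPM in members and at 37.0 and 39.4 CPM in Hes5-zero cells, with no call (adjusted p = 0.647, and 0.989 when matched).

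**Figure D2:**
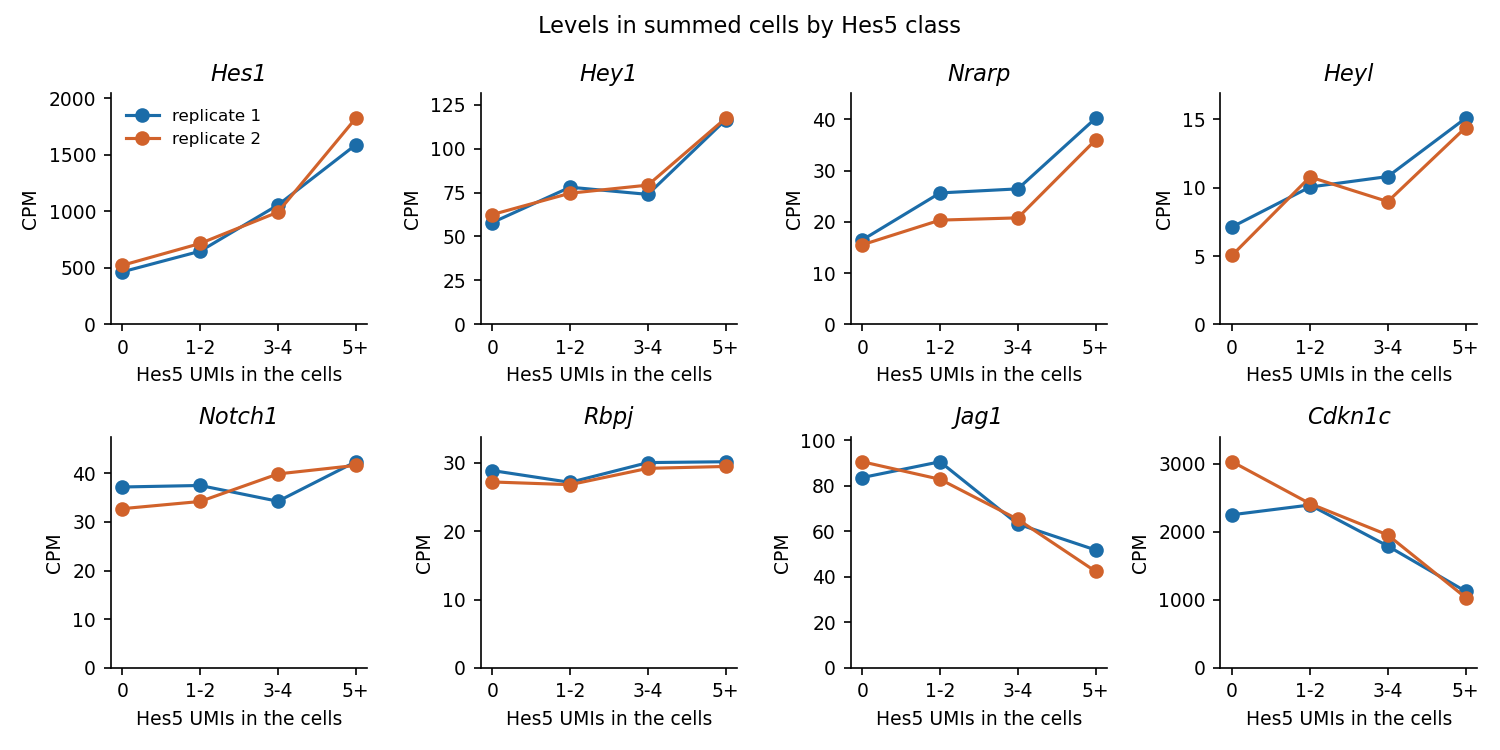
Levels of 8 genes (CPM, linear axes from 0) in the 4 classes of resting lens epithelial cells by Hes5 UMIs in the cell, with 1 point per pool. Hes1, Hey1, Nrarp and Heyl were highest in the members of both pools and Jag1 and Cdkn1c lowest, while Notch1 and Rbpj were nearly level.

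Of the 15 tested corepressors and inhibitors of the pathway, only Nrarp passed. Nrarp, a direct Notch target whose protein binds the Notch intracellular domain and dampens it, lies on chromosome 2 just after the window printed above. It held 40.2 and 36.0 CPM in members and 16.5 and 15.5 CPM in Hes5-zero cells, so the groups were well apart. The log2 fold change was 1.26 ± 0.12 (adjusted p = 1.25e-10) and 1.20 in the matched comparison (adjusted p = 3.11e-05). Hey1, Heyl and Nrarp thus kept their fold when immediate early share was matched, whereas that of Hes1 was smaller.

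The receptors did not pass in any case. Notch1 held 42.4 and 41.6 CPM in members against 37.2 and 32.7 CPM, with a log2 fold change of 0.27 (adjusted p = 0.084). Notch2, the main receptor known from lens deletion studies, held 24.1 and 27.0 CPM against 20.3 and 21.2 CPM (adjusted p = 0.139). Notch3 held 43.5 and 42.1 CPM against 36.0 and 34.4 CPM (adjusted p = 0.083). All 3 were higher in members in both pools, and none was called. Notch4, chiefly an endothelial receptor, was at 2.51 and 3.15 CPM in members and 4.00 and 3.37 CPM in Hes5-zero cells. When matched the 4 stood between 0.05 and 0.40, again with no call. The count of 0 of 4 receptors was 0 with DESeq2 too, and 3 of the 4 had an unadjusted p under 0.05.

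The ligands gave one call, in the opposite direction to the targets. Of 7 ligands only Jag1 and Jag2 had enough UMIs to be tested. Jag1, on the minus strand of chromosome 2 from 137081456 to 137116644, held 51.7 and 42.3 CPM in members and 83.5 and 90.5 CPM in Hes5-zero cells. Every pool of members was below every pool of Hes5-zero cells, with a log2 fold change of -0.91 ± 0.087 (adjusted p = 2.68e-10), against a background of 2.58% of genes lower. In the matched comparison Jag1 stood at -0.37 and was not called (adjusted p = 0.203). Jag2 was at 2.87 and 4.05 CPM in members and 1.84 and 2.04 CPM in Hes5-zero cells, with no call (adjusted p = 0.205), and had no value in the matched comparison.

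The machinery between receptor and target was level. None of the 13 tested genes of receptor processing and modification passed in edgeR or DESeq2, with 3 at an unadjusted p under 0.05, and none of the 8 genes of the nuclear complex passed in either tool, with 0 at an unadjusted p under 0.05. Rbpj, the DNA-binding partner of the Notch intracellular domain, held 30.2 and 29.5 CPM in members and 28.9 and 27.2 CPM in Hes5-zero cells. Over all the pathway lists, 5 of 50 tested genes were higher and 1 was lower, against 4.66% and 2.58% of all genes. The count of lower genes was thus near that of all genes, and the 5 include the known marker Hes1. The median log2 fold change was 0.055. In the matched comparison 4 of 49 were higher and 0 lower, against 0.826% and 0.479% of all genes.

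**Figure D3:**
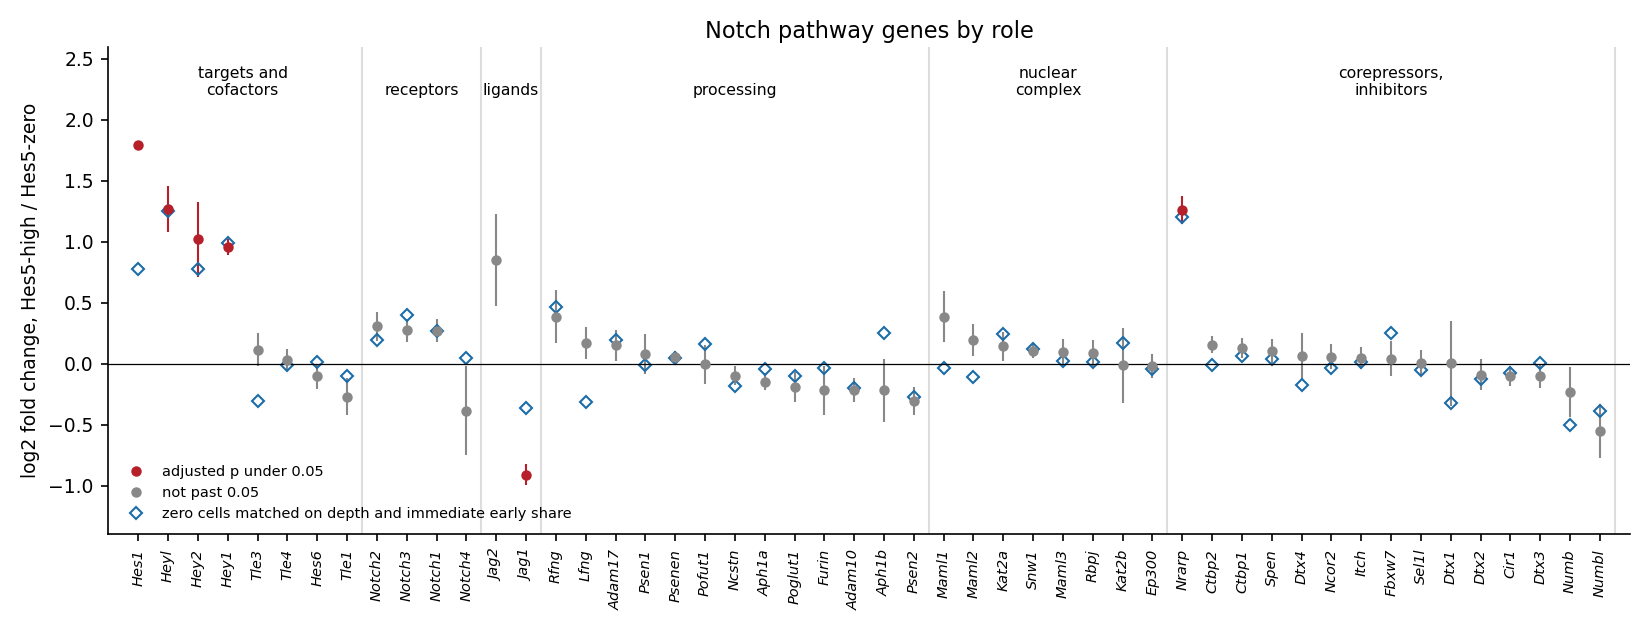
Log2 fold change of the tested Notch pathway genes between Hes5-high and Hes5-zero cells, with bars of 1 SE, grouped by role; red points passed the edgeR test at 0.05 and blue diamonds give the matched comparison. Hes1, Hey1, Heyl, Hey2 and Nrarp are the red points above 0 and Jag1 the red point below it, and no receptor, processing gene or gene of the nuclear complex is red.

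Levels also differed among the members by how much Hes5 they held. From members with 5 to 9 Hes5 UMIs, through those with 10 to 19, to those with 20 or more, Hey1 went from 88.1 to 122 to 206 CPM in replicate 1 and from 87.9 to 122 to 153 CPM in replicate 2. Nrarp went from 31.9 to 39.1 to 72.5 CPM and from 25.9 to 33.8 to 54.0 CPM. Both targets thus climbed with Hes5 inside the group, in each pool. Hes1 went from 1316 to 1842 to 2057 CPM and from 1364 to 1871 to 2433 CPM. Jag1 moved the other way, from 61.8 to 48.1 to 28.1 CPM and from 47.0 to 42.6 to 30.6 CPM. Notch1 had no common order, at 34.0, 53.7 and 49.1 CPM in replicate 1 and 43.4, 40.6 and 36.9 CPM in replicate 2. The groups held 226, 141 and 68 members in replicate 1 and 252, 189 and 144 in replicate 2, and no test was made of these trends.

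With every cell thinned to 3000 UMIs, Hes1 was detected in 91.3% and 93.7% of members and in 57.2% and 61.0% of Hes5-zero cells. Unthinned, the shares were 98.2% and 98.6% against 70.1% and 79.0%. Hey1 was detected in 27.2% and 29.0% of thinned members against 15.2% and 15.6%, and Nrarp in 11.7% and 9.26% against 4.54% and 4.30%. A Hes1 UMI was thus found in most members at this depth, and a Hey1 or Nrarp UMI in a minority. For comparison, 9.62% of 52 macrophage barcodes held a Hes1 UMI, unthinned, at a median of 4034.5 UMIs. Jag1 was detected in 12.2% and 8.58% of thinned members against 18.3% and 18.4% of Hes5-zero cells.

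Gm17056 and its neighbor Lsmem1 on chromosome 12 stood among the largest increases. Gm17056, an antisense RNA gene on the plus strand from 40198656 to 40201105, held 171 and 118 CPM in members and 33.2 and 23.0 CPM in Hes5-zero cells. Its log2 fold change was 2.37 ± 0.075, and 0.69 in the matched comparison. Lsmem1, on the minus strand from 40175493 to 40199490, overlaps it by 835 bases and held 48.9 and 29.5 CPM in members against 9.99 and 5.76 CPM. Its log2 fold change of 2.35 ± 0.15 (adjusted p = 2.61e-15) fell to 0.49 in the matched comparison (adjusted p = 0.200). Ifrd1, a transcriptional coregulator gene on the minus strand from 40201567 to 40248504, has its 3′ end 462 bases beyond the other end of Gm17056. It held 118 and 110 CPM in members against 44.9 and 43.6 CPM, with a log2 fold change of 1.37 ± 0.076 (adjusted p = 6.29e-17) and 0.24 when matched (adjusted p = 0.436). All 3 were higher in members in both pools. Of the other tested genes around them, Arl4a (0.11), Zfp277 (0.38), Dock4 (-0.076) and Gm7008 (0.62) were not called, and Scin was higher at 0.90 (adjusted p = 0.00843) but not called when matched (adjusted p = 0.104). Whether reads over the shared bases were assigned by strand was not given in the sources used here, so Gm17056 and Lsmem1 are uncertain there. Of the tested genes nearest to Hes5 on chromosome 4, neither was called higher: Fam213b was lower, at -0.45 (adjusted p = 0.00662) but not when matched (adjusted p = 0.402), and Pank4 was not called at 0.61 (adjusted p = 0.127).

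Immediate early genes were higher as a group, at 26 of the 32 tested, with the same direction in both pools for all 26 and a median log2 fold change of 1.18. Their summed level was 23925 and 21929 CPM in members and 12876 and 9727 CPM in Hes5-zero cells. Nr4a1, an orphan nuclear receptor, held 205 and 139 CPM in members against 70.7 and 36.9 CPM, a log2 fold change of 1.71 ± 0.071. Egr2, a zinc finger factor of the Egr family, held 131 and 97.2 CPM against 52.2 and 28.6 CPM. Ier2 held 1538 and 1305 CPM against 713 and 481 CPM. The AP-1 subunit Jun held 3612 and 3726 CPM against 1598 and 1512 CPM, and Klf6, a zinc finger factor, held 138 and 123 CPM against 49.4 and 31.5 CPM. The matched comparison drew cells by the list's own total. In replicate 2 it did so only in part, with a median share of 1.86% in the drawn cells against 2.29% in members. There 10 of 32 were higher with a median of 0.17, and the part of this remaining gap was not tested. Nr4a1 (0.48), Ier2 (0.24), Jun (0.25) and Klf6 (0.56) were among these 10, and Egr2 was not (0.19, adjusted p = 0.521). Heat shock genes gave 2 calls among 13 and a median of 0.05, and Dnajb1 was the larger of them at 1.01, with no call when matched (0.28, adjusted p = 0.163).

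The share of members among resting LECs followed the immediate early share, as the plot by bin shows. In replicate 1 it was 0.427%, 1.88%, 3.68%, 8.20% and 23.0% from the lowest bin to the highest. In replicate 2 it was 2.00%, 2.88%, 7.38%, 15% and 45.8%. Inside each bin, Hes1 was still higher in members than in Hes5-zero cells, in both pools. In the lowest bin of replicate 1 Hes1 held 411 CPM in members against 150 CPM, and in the highest 2047 against 1243 CPM. In replicate 2 these values were 346 against 193 CPM and 2316 against 1588 CPM. Jag1 was not ordered in this way: members were below Hes5-zero cells in 2 of the 5 bins of replicate 1 and in 4 of the 5 of replicate 2. In bin 4 of replicate 1 members held 76.8 CPM of Jag1 against 43.6 CPM, and in the highest bin the values were 34.9 against 31.5 CPM in replicate 1 and 28.5 against 26.3 CPM in replicate 2. Cdkn1c was lower in members in 4 of the 5 bins of replicate 1 and in all 5 of replicate 2, and the exception was bin 4 of replicate 1, at 2322 CPM in members against 948 CPM. The lowest bins held only 5 and 16 members, so values there rest on few UMIs. Among Hes5-zero cells alone both genes were lower where the immediate early share was higher, Jag1 from 148 to 31.5 CPM and from 115 to 26.3 CPM from the lowest bin to the highest, and Cdkn1c from 4221 to 619 CPM and from 4079 to 782 CPM. The part of dissociation in these values was not tested.

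**Figure D4:**
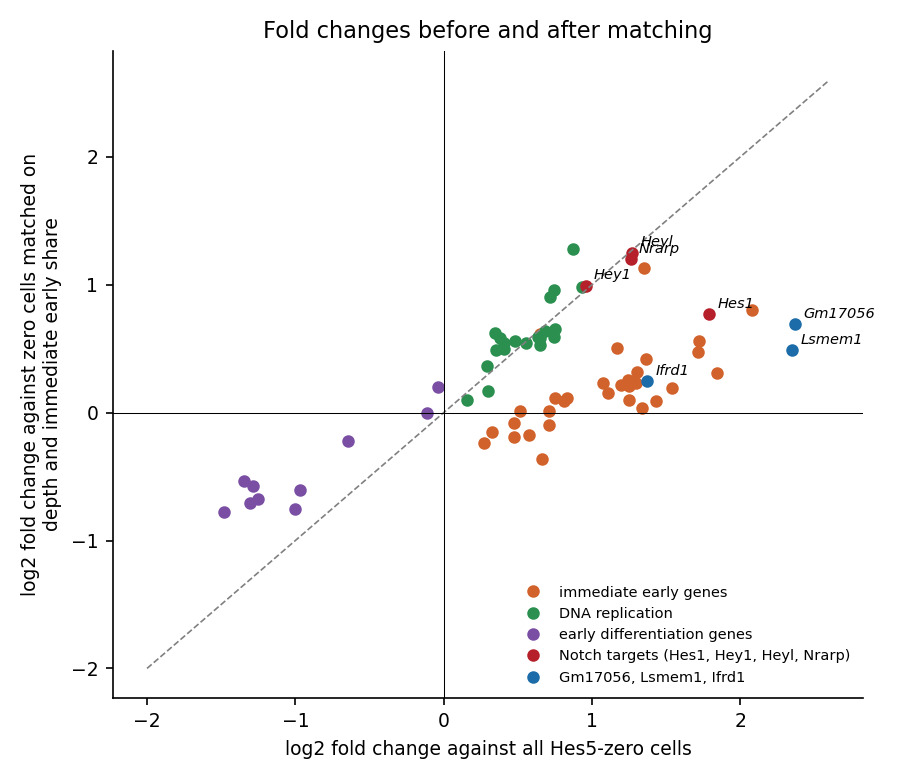
Log2 fold change between Hes5-high and Hes5-zero cells (horizontal) against that with Hes5-zero cells matched on total UMIs and immediate early share (vertical), 1 point per gene of 3 lists, 4 Notch targets and 3 genes of chromosome 12, with the dashed line of equal folds. Hey1, Heyl, Nrarp and most DNA replication genes lie close to the line, while Hes1, Gm17056, Lsmem1, Ifrd1 and most immediate early and early differentiation genes lie nearer to 0 on the vertical axis.

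Cytokine and inflammatory genes included some of the largest increases. Ccl2, a chemokine that draws monocytes, held 63.9 and 152 CPM in members and 11.6 and 18.5 CPM in Hes5-zero cells, with a log2 fold change of 2.77 ± 0.14 and 1.75 when matched (adjusted p = 4.23e-07). Cxcl1, a neutrophil chemokine, held 19.8 and 65.7 CPM against 6.58 and 13.4 CPM, a log2 fold change of 2.06. For both chemokines replicate 2 was well above replicate 1, and for both the member values lay above those of the Hes5-zero cells of either pool. Macrophage markers were also high in the members of replicate 2, as given above. Of the NF-kappa B response, 8 of 13 genes were higher, and 4 of them (Cxcl1, Ccl2, Nfkbia and Nfkbiz) passed when matched. Of the JAK-STAT3 pathway, 6 of 17 were higher. Stat3 itself held 133 and 93.6 CPM against 60.2 and 41.6 CPM, a log2 fold change of 1.15 that was not called when matched (0.21, adjusted p = 0.354). Socs3, the feedback inhibitor of that pathway, held 742 and 875 CPM against 480 and 373 CPM, and it alone of the list passed when matched (0.21, adjusted p = 0.0272).

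Genes of DNA replication were higher although S-phase cells rich in histone transcripts had been left out. Of 20 tested, 16 were higher, with a median log2 fold change of 0.60, and 12 passed in the matched comparison with a median of 0.585. Mcm3, a subunit of the replicative helicase, held 78.7 and 76.3 CPM in members and 49.2 and 49.3 CPM in Hes5-zero cells. Rrm2, which supplies deoxynucleotides, held 27.3 and 27.7 CPM against 13.7 and 15.2 CPM. Pcna, the sliding clamp, held 78.0 and 113 CPM against 53.3 and 70.8 CPM. For each of these genes the members lay above the Hes5-zero cells in both pools, and each passed when matched, at 0.53, 0.99 and 0.59. Mcm2, with the lowest fold of the list, was not called (0.16, edgeR adjusted p = 0.361). It held 43.1 and 54.2 CPM in members against 43.5 and 45.2 CPM. Ccnd1, the G1 cyclin, held 428 and 457 CPM against 370 and 383 CPM, and the factor E2f1 held 13.3 and 21.6 CPM against 9.72 and 11.0 CPM. These were the 2 calls among 13 genes of the G1 list, and both passed when matched.

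Genes of early differentiation were lower in members than in Hes5-zero cells, at 8 of 10 tested, with a median log2 fold change of -1.13. Cdkn1c, the cyclin-dependent kinase inhibitor with which cells leave the cell cycle at the lens equator, lies on the minus strand of chromosome 7 from 143458339 to 143461050. It held 1125 and 1034 CPM in members and 2250 and 3029 CPM in Hes5-zero cells, a log2 fold change of -1.29 ± 0.056 (adjusted p = 2.81e-20), and -0.57 when matched (adjusted p = 0.00963). Thinned to 3000 UMIs, Cdkn1c was detected in 73.1% and 63.8% of members and 73.9% and 74.2% of Hes5-zero cells. With resting LECs put into 5 bins by Cdkn1c share, Hes5-zero cells of the top bin held 6612 and 7595 CPM, and members were 2.82% and 3.62% of the cells of that bin against 8.97% and 20.6% of the lowest. Over all cells of a class, Cdkn1c stood at 628 and 444 CPM in Igfbp5-rich and 483 and 402 CPM in S-phase LECs. It stood at 568 and 500 CPM in mitotic LECs and at 6984 and 7548 CPM in beta crystallin-rich LECs. Members were thus below the Hes5-zero cells but above the Igfbp5-rich, S-phase and mitotic classes. Ccdc80, a secreted matrix protein, held 59.6 and 46.4 CPM against 143 and 147 CPM. Pmp22, a membrane protein gene, held 116 and 114 CPM against 271 and 296 CPM. Each was lower in every pool of members than in any pool of Hes5-zero cells. In the matched comparison 5 of the 10 passed (Adamtsl4, Epha5, Cdkn1c, Pmp22 and Ccdc80), with a median of -0.59.

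Fiber cell genes followed, with 13 of 20 lower and a median of -0.24, of which 5 passed when matched. Rbm24, an RNA-binding protein needed for fiber transcripts, held 39.9 and 40.1 CPM in members against 120 and 145 CPM. The crystallins of the limits were used to select the cells, and their levels are a description that supports nothing. Cryba2 stood at 321 and 323 CPM against 664 and 801 CPM, and Cryaa at 17174 and 14770 CPM against 24814 and 24902 CPM, while Cryab stood at 41800 and 43982 CPM against 38802 and 42357 CPM. Abca4, a lipid transporter best known from photoreceptors, held 18.3 and 25.9 CPM against 53.2 and 104 CPM, and passed when matched (-0.98, adjusted p = 0.0231). Nnat, a small membrane protein gene, held 43.8 and 45.7 CPM against 104 and 127 CPM, and did not (-0.54, adjusted p = 0.472).

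Regulators of the lens epithelium were mostly level. Of 16 lens transcription factors 3 were lower (Gata3, -1.02, Maf, -0.67, and Mab21l1, -0.59), of which Maf (-0.34) and Mab21l1 (-0.56) passed when matched and Gata3 did not (-0.31, adjusted p = 0.583). Maf drives crystallin genes in fibers. The Id genes, partners that silence bHLH activators, were split: Id3 held 1281 and 1653 CPM in members against 815 and 778 CPM, a log2 fold change of 0.88, whereas Id1 and Id2 were lower at -0.65 and -0.97. When matched Id3 passed at 0.61, and Id1 (-0.22, adjusted p = 0.663) and Id2 (-0.63, adjusted p = 0.125) did not. Of the YAP and contractile list 11 of 17 were higher and 1 was lower, but when matched 2 of 16 were higher (Tagln and Actg1), with a median of 0.16. Tagln, an actin-binding protein of contractile cells, held 78.7 and 80.1 CPM against 31.4 and 18.3 CPM, a log2 fold change of 1.72 that stood at 0.86 when matched. The mural genes Rgs5 and Mgp were both lower in members at -3.32, and passed when matched as well, and the mural marker sum given above was lower too. They were the 2 calls among 5 tested mural markers, and Notch3 of the same list stood at 0.27 with no call.

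Hes5-high cells also occurred in the 4 classes of LECs that the rule had left out. Resting LECs had 7.43% in replicate 1 (95% exact binomial interval 6.77 to 8.13) and 14.6% in replicate 2 (13.5 to 15.8). Mitotic LECs had 7.66% (6.45 to 9.01) and 13.4% (11.8 to 15.2), and S-phase LECs 9.34% (6.66 to 12.6) and 18.2% (14.7 to 22.2). Igfbp5-rich LECs had 4.30% (3.40 to 5.36) and 10.2% (8.43 to 12.2), below resting LECs in each pool. Beta crystallin-rich LECs had 1.40% (0.829 to 2.20) and 2.70% (1.77 to 3.93), the lowest of the classes, although they were the deepest at medians of 12260 and 13504 UMIs. Thinned to 3000 UMIs with a limit of 3 Hes5 UMIs, the shares were 6.95% and 12.4% in resting, 5.02% and 8.48% in mitotic, 6.49% and 11.7% in S-phase, 3.49% and 7.38% in Igfbp5-rich and 0.315% and 0.859% in beta crystallin-rich LECs. In every class replicate 2 was above replicate 1, and no test was made of these shares.

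The same contrast was fitted in those 4 classes, which shared no cells with the members but came from the same pools. Hes5-high cells numbered 75 and 108 in Igfbp5-rich and 37 and 79 in S-phase LECs of replicates 1 and 2. In mitotic LECs there were 133 and 211, and in beta crystallin-rich LECs only 18 and 26. Without the top 8% of doublet scores, 67 and 91, 26 and 66, 101 and 185, and 14 and 16 were left in that order. The contrasts were not fitted with those cells left out. Of 11128 genes, the Igfbp5-rich class had 69 higher (0.62%) and 6 lower (0.0539%) and the mitotic class had 133 higher (1.2%) and 46 lower (0.413%). The beta crystallin-rich class had 82 higher (0.737%) and 130 lower (1.17%). The S-phase class had 41 higher (0.368%) and 0 lower (0%) in edgeR, with 457 lower at an unadjusted p under 0.05 and 0 with DESeq2. Of 535 genes higher in members and tested here, 62 were called higher in the Igfbp5-rich, 38 in the S-phase, 109 in the mitotic and 60 in the beta crystallin-rich class. Of 299 genes lower in members, 1, 0, 7 and 45 were called lower in the same order, and 2, 0, 3 and 1 were called higher. A fold below 0 was found for 176, 192, 166 and 254 of the 299 in the same order. Their median log2 fold changes were -0.051, -0.086, -0.024 and -0.31. The share of all genes with a fold below 0 in these classes is not given here.

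Hes1 was higher in Hes5-high cells of every class, at log2 fold changes of 1.32 in Igfbp5-rich, 1.80 in S-phase, 1.77 in mitotic and 2.13 in beta crystallin-rich LECs, all past the edgeR threshold. Hey1 passed in Igfbp5-rich (1.18) and mitotic LECs (1.09) and stood at 0.93 in S-phase (adjusted p = 0.052) and 0.32 in beta crystallin-rich LECs (adjusted p = 0.629). Nrarp passed in Igfbp5-rich (1.54) and mitotic LECs (0.82). Of the 8 bHLH repressors and Tle cofactors, 2, 1, 2 and 1 were called in Igfbp5-rich, S-phase, mitotic and beta crystallin-rich LECs. Hes1 and Hey1 made up these calls, so Heyl and Hey2 were called in none of these classes. Immediate early genes were higher in all 4 classes too, with 16, 17, 23 and 10 of 32 called in the Igfbp5-rich, S-phase, mitotic and beta crystallin-rich classes. Of 20 DNA replication genes 0, 0, 0 and 7 were called higher in the same order. Of 10 early differentiation genes 0, 0, 0 and 1 were called lower, and 2 were called higher in mitotic LECs. Jag1 was called in none of the 4 classes, at -0.11, 0.40, -0.10 and -0.17 in the same order, and Cdkn1c in none, at -0.05, -0.19, -0.09 and -0.28. Over all cells of a class, Jag1 stood at 24.5 and 21.8 CPM in Igfbp5-rich and 27.5 and 23.8 CPM in S-phase LECs. In mitotic LECs it stood at 35.7 and 31.2 CPM, and in beta crystallin-rich LECs at 165 and 160 CPM. All but the last were below the members, at 51.7 and 42.3 CPM.

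The difference between classes was tested as an interaction. Against the contrast in resting LECs, 21 genes differed in Igfbp5-rich (0.189%), 7 in S-phase (0.0629%), 22 in mitotic (0.198%) and 33 in beta crystallin-rich LECs (0.297%). Cdkn1c was among them for the Igfbp5-rich, mitotic and beta crystallin-rich classes, where its fold was nearer to 0, and Hes1 was among them for the Igfbp5-rich class, where its fold was smaller by 0.47 on the log2 scale (adjusted p = 0.000445). For Jag1 the difference was not called in any class.

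**Figure D5:**
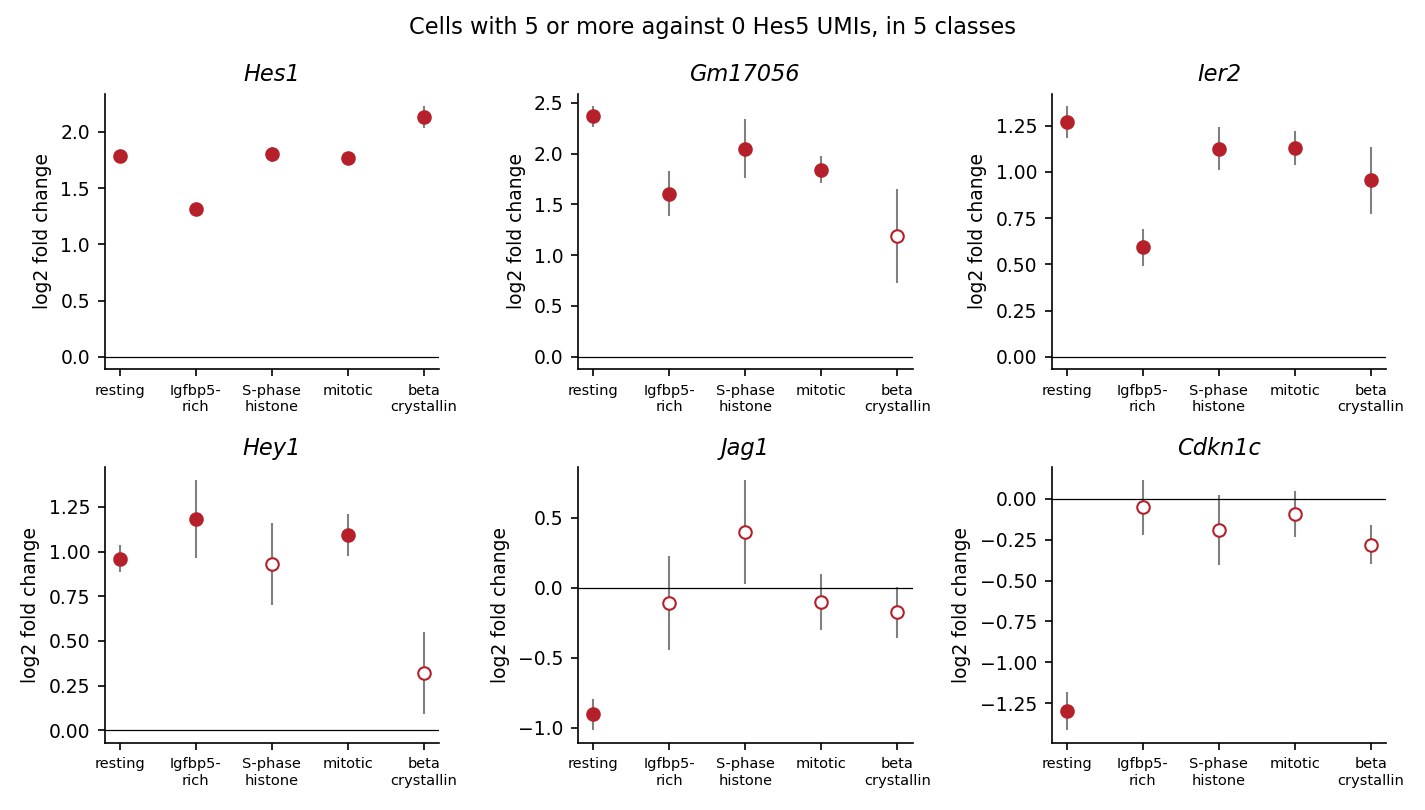
Log2 fold change between cells with 5 or more and with 0 Hes5 UMIs in 5 classes of lens epithelial cells, for 6 genes, with bars of 1 SE; filled points passed the edgeR test at 0.05. Hes1 was higher in every class, while Jag1 and Cdkn1c were lower past the threshold in resting cells and were not called in the other 4 classes.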

How the data were processed

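Droplet libraries (3′ chemistry) of 2 pools of mouse lens epithelium were aligned and counted by the authors with Cell Ranger 6.1.1 on mm10, and the deposited files hold raw UMI counts per gene and barcode, used here as they stand. The members and the gene lists were chosen with earlier results of these data known. UMIs were summed per pool in 4 classes of resting LECs by Hes5 UMIs (0, 1 to 2, 3 to 4, 5 or more), and the 8 sums were tested in edgeR 4.0.16 (R 4.3.3) with TMM scaling, filterByExpr, glmQLFit and a block on pool, since the sums of a pool share 1 cell suspension. CPM values given for single genes are TMM-scaled, and those within members, within bins, over all cells of a class and of marker sums are plain. One further fit held 5 classes of LECs by 3 Hes5 groups and tested their differences. SE is the fold divided by the root of its F. Hes5 and the genes of the limits were described and not tested. Cells of a pool are not replicates. The study calls the pools independent, and whether they came from separate litters or days is not given in the sources used here.

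Named genes were the markers, every tested Notch gene, Socs3, Junb, Zfp36, Fos, Jun and Cdkn1c. To these were added the 12 largest changes each way past the threshold in the main and depth-matched comparisons with at least 20 CPM. Each list also gave its genes of highest CPM and those of lowest and highest fold. Further genes, such as Mcm3, Ung, Egr1 and Ifrd1, were picked by hand for the text. Alternatives changed the comparison cells, the Hes5 limit (3 or 8 UMIs), depth (cells thinned to 3000 UMIs), doublets (highest 8% of Scrublet scores in scanpy 1.11.5), scaling, filter, block and tool (DESeq2 1.42.0). The edgeR script was tested on simulated data first. Sequences came from RefSeq tables on GRCm38.p6. Promoters of Hes1, Hey1, Heyl, Cdkn1c, Gm17056, Ier2 and Ccdc80 are not shown. Some single genes are not reported here.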

Additional observations from a re-analysis of the deposited data

Results flagged for a closer look

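In 16 cases a named gene's Hes5 contrast differed between resting LECs and another class by edgeR's interaction test at an adjusted 0.05. Each value is the log2 fold change in the other class minus that in resting LECs, and none was explained or tested further. In Igfbp5-rich LECs the contrast was smaller for Hes1 by -0.47, Klf6 by -0.95, Nr4a1 by -0.86, Egr2 by -0.83 and Ier2 by -0.68. In beta crystallin-rich LECs it was smaller for Klf6 by -1.51.

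For the other 6 genes, all lower in members, the difference was above 0. For Cdkn1c the difference was 1.25 in Igfbp5-rich, 1.21 in mitotic and 1.02 in beta crystallin-rich LECs. For Pmp22 it was 1.40 in mitotic and 0.94 in beta crystallin-rich LECs. Rbm24 differed by 1.94 in mitotic and 1.16 in beta crystallin-rich LECs, and Ace, which encodes a peptidase, by 1.75 in mitotic LECs. In beta crystallin-rich LECs Nnat differed by 1.74 and Abca4 by 1.26. These calls were not kept without the block on pool, under which no difference passed in any class.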

How the results depend on the processing

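The 545 genes higher and 302 lower in members became 333 and 178 against Hes5-zero cells matched on depth, 88 and 51 with immediate early share matched as well, 279 and 137 with cells thinned to 3000 UMIs, 211 and 85 with DESeq2, and 89 and 41 with no replicate block. The immediate early list fell from 26 to 10 calls only with both matched. The log2 fold change of Gm17056 was 2.36 without either replicate (2.3563 to 2.35803). With no replicate block, the 75 calls in Igfbp5-rich LECs became 18, the 41 in S-phase LECs 13, the 179 in mitotic LECs 45 and the 212 in beta crystallin-rich LECs 71, and with depth matched the first and last became 39 and 53. The differences from resting LECs (21, 7, 22 and 33 genes in the same order) became 0 in all 4 classes with no replicate block in edgeR (471, 596, 483 and 816 at an unadjusted p under 0.05), 55, 12, 40 and 72 with DESeq2, and 11 in Igfbp5-rich LECs with depth matched. The mean share of Hes5-high beta crystallin-rich cells went from 2.05% to 0.587% when thinned.

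Over 187 single genes, 2383 of 2563 values stayed on their side of the threshold. Another 133 kept the direction alone, 35 passed the threshold anew and 12 turned. A change of direction was counted as a turn only if at least 1 of the 2 values passed the threshold. The 2383 therefore include uncalled values that changed direction, such as Lfng, from 0.17 to -0.31 with depth and immediate early share matched. The macrophage genes C1qb (2.58 in members, -5.25 with members taken as the top 10% of cells by Hes5 share, -2.78 without replicate 2 and 2.82 without replicate 1) and Pf4 (1.88, and in the same order -3.35, -3.05 and 2.62, with -1.49 when thinned) turned. So did, with depth and immediate early share matched, Ccn2 (-0.10), Fosb (-0.17), Car8 (-0.071), Tpm1 (-0.20), Col4a1 (-0.0067), Ctsl (-0.015), Sparc (-0.10), Col4a2 (-0.075) and Crybb3 (0.041). The cause of these changes was not tested. With 2 pools the spread between mice is not measured, and genes of a few CPM, such as Hey2, Notch4 and Jag2, rest on few UMIs.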
